A study of Mus musculus with 3 samples.

Results

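Ucn3-positive beta cells made up 6251 of the 14188 cells analysed here. They were selected on measured UMIs (unique molecular identifiers, each standing for 1 captured transcript) of 6 genes: a cell had at least 3000 Ins1 plus Ins2 UMIs per 10000 UMIs (CP10K), under 200 CP10K of Gcg, under 200 of Ppy, under 100 of Sst, and at least 1 UMI of Ucn3. Cells with under 500 genes, under 10000 UMIs or over 20% mitochondrial UMIs were left out first. Levels of these 6 genes are therefore descriptions and carry no test.

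Ins1 and Ins2 are the mouse insulin genes. Ucn3 encodes urocortin 3, a peptide that beta cells store and release together with insulin. In the mouse it acts on type 2 CRH receptors of delta cells, whose somatostatin then restrains insulin release, and it appears in beta cells only after birth, so it is widely used as a marker of beta-cell maturity. Mafa encodes a transcription factor of the mature beta cell that binds the insulin promoters. Beta cells fold a very large amount of proinsulin in the endoplasmic reticulum (ER), cleave it in granules, and couple glucose entry to calcium and exocytosis.

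The cells came from dissociated islets of 6 mice of the cross Ngn3-CreERT:R26-CAG-TdTomato, taken 10 days after tamoxifen. In this cross, cells that express Ngn3 (Neurog3, the endocrine progenitor factor) when tamoxifen is present are meant to be marked by TdTomato. All 3 samples belonged to this 1 group, with no sample lacking Cre or tamoxifen, so every comparison here is between cells of the same samples. About 10000 cells were loaded per channel for 3′ single-cell RNA sequencing, and 2 of the samples each pooled 2 mice. One sample has its own count table, called library 1. The other samples share a joint table whose columns do not name them. That table was treated as 1 library, so n = 2 libraries throughout, and its 3 blocks of barcodes are used only to show spread.

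There were 437 Ucn3-positive beta cells in library 1 and 5814 in the joint table, of which 2575, 1323 and 1916 fell in blocks 1 to 3. They were 63.3% of the 690 cells passing the gene, mitochondrial and UMI limits in library 1 (95% exact binomial interval 59.6 to 66.9) and 77.4% of the 7511 such cells in the joint table (76.4 to 78.4). The share differed by under 1 percentage point between the blocks, at 77.8%, 77.2% and 77.0%. The classes they are compared with were gated on the same cells: 478 Ucn3-negative beta cells, 261 alpha cells, 24 delta cells and 184 PP cells. The last 3 had at least 1000 CP10K of Gcg, Sst or Ppy. They could also hold insulin under 3000 CP10K and low levels of the other hormones, so they are not cells of a single hormone. Library 1 shared 5, 1 and 0 barcodes with the 3 blocks. The blocks shared 6, 4 and 4 barcodes with each other in pairs, and no shared barcode held identical values. Xist, the X-inactivation transcript, had a UMI in 99.8% of the members in library 1 and in 72.4% of those in the joint table. UMIs of 4 Y-linked genes were found in 24.1% of the joint table's members, and library 1 listed none of these genes.

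The promoters of the genes that define the class, Ins1 and Ucn3, are shown from 250 bases before to 50 bases after the RefSeq start (GRCm38.p6), read 5′ to 3′ along the gene. Capitals mark GCCATCTG, the E box of rodent insulin 1 promoters that NEUROD1 binds, searched on both strands. The Ins1 promoter is chr19:52264047-52264346 on the plus strand and the Ucn3 promoter is chr13:3945300-3945599 on the minus strand.
Ins1: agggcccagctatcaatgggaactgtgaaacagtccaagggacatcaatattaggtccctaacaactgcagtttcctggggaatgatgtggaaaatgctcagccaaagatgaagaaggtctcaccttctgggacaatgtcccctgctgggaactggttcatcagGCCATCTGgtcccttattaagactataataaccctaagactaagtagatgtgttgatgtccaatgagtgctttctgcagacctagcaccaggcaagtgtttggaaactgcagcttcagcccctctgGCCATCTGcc
Ucn3: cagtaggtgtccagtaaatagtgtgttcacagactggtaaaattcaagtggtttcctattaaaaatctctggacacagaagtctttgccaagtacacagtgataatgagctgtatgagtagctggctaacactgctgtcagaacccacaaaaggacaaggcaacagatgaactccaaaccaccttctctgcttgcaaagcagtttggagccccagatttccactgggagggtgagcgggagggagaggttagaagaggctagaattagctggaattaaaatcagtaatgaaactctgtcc
The Ins1 window held 2 matches and the Ucn3 window 0. The first Ins1 match lies before the start, and the second lies after it, near the end of the window. GCCATCTG occurred in 1.32% of the 32851 mouse promoters of the same length. The A box CTAATG, found in 7.36% of promoters, and the cyclic AMP response core TGACG, found in 20.8%, had no match in either window. Promoters of Ins2 and Mafa are not shown. The gene bodies lie in GRCm38 at chr19:52264297-52265476 for Ins1, chr7:142678656-142743381 for Ins2, chr13:3940688-3945349 for Ucn3 and chr15:75745490-75748228 for Mafa.

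Insulin dominated the transcriptome of these cells. Ins1 and Ins2 together had a median of 6510 CP10K in library 1 and 6662 CP10K in the joint table, and single cells ranged over 3756 to 7779 CP10K in library 1 and over 3228 to 8329 CP10K in the joint table. The joint table's blocks had medians of 6708, 6744 and 6540 CP10K, so the level was nearly the same in every unit. Ins2 contributed a median of 73.4% of insulin UMIs in library 1 and 72.7% in the joint table. Ucn3 itself was a low-count gene: its median was 7 UMIs per cell in library 1 and 4 in the joint table, or 1.57 and 1.74 CP10K.

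The insulin threshold lay in an almost empty range, with 4 joint-table members at 3000 to 3500 CP10K and 1 cell left out in the range of the same width just under it. The Ucn3 threshold did not. Cells with 0, 1, 2 and 3 Ucn3 UMIs numbered 23, 15, 36 and 34 in library 1 and 455, 760, 911 and 906 in the joint table. Members were also deeper than Ucn3-negative beta cells, with a median of 40622 against 33379 UMIs in library 1 and 21714.5 against 17029 UMIs in the joint table. After every cell was thinned to 10000 UMIs, 4892 joint-table cells were Ucn3-positive and 1375 were Ucn3-negative; the Ucn3-negative class grew as depth fell. The limits on a second hormone left out 17 Ucn3-positive cells in library 1 and another 417 from the joint table.

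Because insulin takes up most UMIs, all further levels are CP10K over the UMIs outside the 6 selecting genes, written plainly as CP10K. UMIs were summed per class and library, log2(CP10K + 0.05) values were centred on each column's median, and limma compared the classes over 9948 genes, with the library as a term and 4 residual degrees of freedom. A gene is called at a Benjamini-Hochberg adjusted p under 0.05, and a difference is on this log2 scale, which understates the change of low genes. The libraries pool cells of several mice. With the library term in the fit, the p-values measure how class differences vary between the 2 libraries, not between animals.

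Mafa, the one marker of the class that was not used to select it, was at 10.3 CP10K in library 1 and at 13.5, 13.2 and 13.5 CP10K in blocks 1 to 3. It was at 0.0515 and 0.618 CP10K in non-endocrine cells of library 1 and the joint table, in the direction of the label. The 10 alpha markers summed to 17.9 and 19.0 CP10K in members, mostly Ttr, against 405 and 514 CP10K in alpha cells. The 8 delta markers summed to 0.925 and 0.371 CP10K in members, against 91.9 and 74.5 CP10K in delta cells. The 7 acinar markers, none of them at 0, summed to 0.324 CP10K in members of library 1 and 7.19 CP10K in those of the joint table, and to 0.425 and 16.7 CP10K in non-endocrine cells of the same tables. Acinar transcripts were thus higher in the joint table in both kinds of cell.

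Ucn3-positive beta cells were compared with alpha cells first. In the beta cells 535 genes were higher (5.38% of those tested) and 486 lower (4.89%). All 1021 had the same sign in both libraries, which a call made from 2 libraries nearly requires. Slc2a2, the GLUT2 glucose transporter, was at 9.50 CP10K in members of library 1 and at 10.0, 9.82 and 9.63 CP10K in blocks 1 to 3. Alpha cells had 0.119 CP10K of it in library 1 and 0.183 CP10K in the joint table, a log2 difference of 5.53 (SE 0.62, limma adjusted p = 3.20e-04). G6pc2, the islet glucose-6-phosphatase that opposes glucokinase, was at 13.1 and 13.4 CP10K in members of library 1 and the joint table, against 0.291 and 0.489 CP10K in alpha cells (log2 difference 4.87, SE 0.71, limma adjusted p = 0.00164). Member and alpha values did not overlap for either gene. Of the 18 tested genes of glucose sensing and coupling, 8 were higher and none lower, among them Pcx, Trpm5 and the ER calcium pumps Atp2a2 and Atp2a3. The list's median log2 difference was 0.60, beside -0.03 over all genes.

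**Figure D1:**
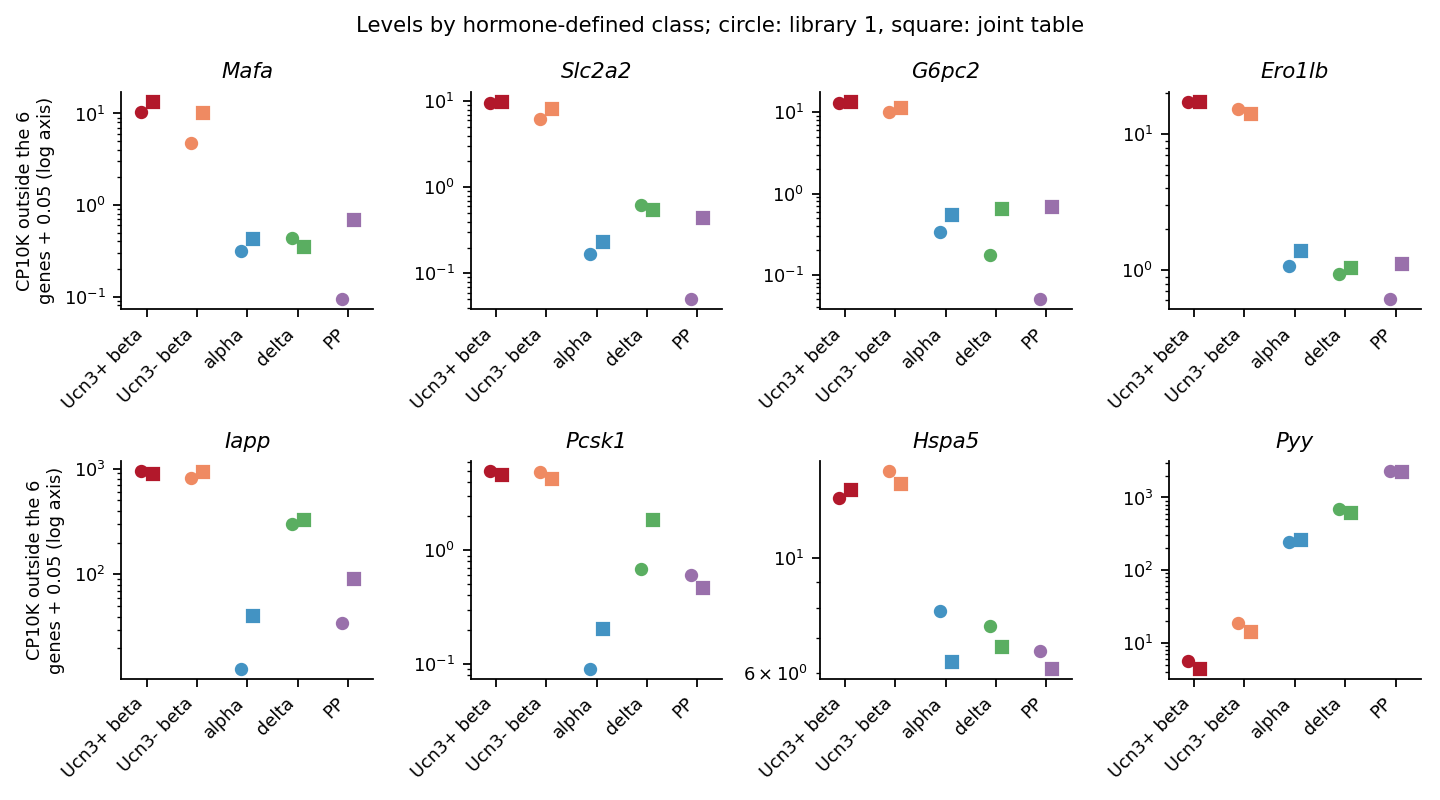
Level of 8 genes in each hormone-defined class (CP10K outside the 6 selecting genes plus 0.05, log axes of differing range), with a circle for library 1 and a square for the joint table. Mafa, Slc2a2, G6pc2 and Ero1lb were high in both kinds of beta cell and low in alpha, delta and PP cells, and Pyy ran the other way.

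Iapp, which encodes amylin and is released with insulin, was at 944 CP10K in members of library 1 and at 917, 867 and 874 CP10K in blocks 1 to 3. Alpha cells had 12.7 and 40.5 CP10K in library 1 and the joint table, and the joint value lay under the 51.0 CP10K of non-endocrine cells. The log2 difference was 5.24 (SE 0.34, limma adjusted p = 2.05e-05). Pcsk1, the convertase that makes the first cut in proinsulin, was at 4.95 and 4.57 CP10K in members, against 0.0397 and 0.153 CP10K in alpha cells (log2 difference 5.06, SE 0.43). Pcsk2, the convertase that alpha cells use to release glucagon, was lower in members, at 28.1 and 38.0 CP10K against 45.1 and 55.9 CP10K. The secretory granule protein gene Resp18 fell in the same direction, to 19.2 and 17.9 CP10K in members against 55.7 and 50.9 CP10K in alpha cells. Over the 18 granule and prohormone genes, 6 were higher and 5 lower.

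Ero1lb, the oxidase that supplies disulphide bonds to folding proinsulin, was at 17.3 and 17.4 CP10K in members of library 1 and the joint table. It was at 1.03 and 1.33 CP10K in alpha cells, a log2 difference of 3.74 (SE 0.20, limma adjusted p = 6.05e-06). The chaperones and stress genes of the ER moved together: 16 of 19 tested were higher in members than in alpha cells and none was lower, with a median log2 difference of 0.95. Hspa5, the ER chaperone BiP, was at 13.1 CP10K in members of library 1 and at 13.5, 13.9 and 13.3 CP10K in blocks 1 to 3, against 7.86 and 6.23 CP10K in alpha cells of library 1 and the joint table (log2 difference 0.83, SE 0.12, limma adjusted p = 0.00179). Sel1l, an adaptor of ER-associated degradation, was at 1.32 and 1.61 CP10K in members against 0.212 and 0.348 CP10K in alpha cells. Of the 3 that did not pass, Atf4, the translation-stress factor, was at 3.45 and 2.82 CP10K in members and 3.04 and 1.81 CP10K in alpha cells (log2 difference 0.31, SE 0.25, limma adjusted p = 0.628). Sdf2l1, a cofactor of BiP, was at 2.38 and 1.73 CP10K in members against 0.595 and 0.295 CP10K in alpha cells.

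Of the tested beta-cell transcription factors, 9 were higher in members than in alpha cells and 1 was lower. Nkx6-1 and Pdx1, which maintain beta identity, were at 5.42 and 2.19 CP10K in members of library 1, against 0.423 and 0.0794 CP10K in alpha cells. Their log2 differences over both libraries were 3.40 and 3.75. Prox1 was the 1 of 20 that was lower, at 0.524 and 0.706 CP10K in members against 1.27 and 2.20 CP10K in alpha cells. Ttr, transthyretin, was at 14.9 and 15.7 CP10K in members against 382 and 489 CP10K in alpha cells.

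Surface receptors were mostly higher in members: 12 of 19 tested rose relative to alpha cells and 3 fell. Prlr, the prolactin receptor, was at 10.2 and 9.38 CP10K in members against 0.106 and 0.301 CP10K in alpha cells (log2 difference 5.31, SE 0.43, limma adjusted p = 5.59e-05). Adra2a, the alpha-2A adrenergic receptor that restrains insulin release, was at 1.34 and 1.56 CP10K in members against 0 and 0.0648 CP10K in alpha cells. The lipid receptors Ffar4 and Gpr119 were among the 3 that fell. Ffar4 was at 0.0194 and 0.0215 CP10K in members against 0.542 and 0.454 CP10K in alpha cells. Of the 16 exocytosis genes, 5 were higher and none lower, led by the granule-docking gene Sytl4 at 2.86 and 2.90 CP10K in members against 0.0397 and 0.0589 CP10K in alpha cells.

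Transcripts known to respond to cell dissociation differed between the classes. Of 16 immediate early and heat shock genes, 8 were lower in members than in alpha cells and 2, the chaperones Hspa1a and Hspa1b, were higher. Egr1 was at 8.0 and 7.69 CP10K in members against 22.1 and 17.1 CP10K in alpha cells. Atf3 was at 0.599 and 0.176 CP10K in members against 10.4 and 1.67 CP10K in alpha cells, and differed between the tables as well as between the classes. The part of these genes in the other differences was not tested.

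PP cells were compared in the same way. In members 465 genes were higher than in PP cells (4.67%) and 476 lower (4.78%). Mafa was at 10.3 and 13.4 CP10K in members of library 1 and the joint table, against 0.0432 and 0.632 CP10K in PP cells (log2 difference 5.22, SE 0.55, limma adjusted p = 3.66e-04). Ero1lb was at 0.562 and 1.06 CP10K in PP cells, a log2 difference of 4.07, and Prlr was at 0.0864 and 0.532 CP10K there, a log2 difference of 4.80. Neurod1 was at 3.13 and 3.68 CP10K in members against 0.994 and 1.48 CP10K in PP cells. The ER list had 11 of 19 higher and none lower, with a median log2 difference of 0.67, and the glucose list had 8 of 18 higher and none lower. Hspa5 was at 6.57 and 6.05 CP10K in PP cells (log2 difference 0.74, SE 0.12, limma adjusted p = 0.00435). Xbp1, the factor that drives ER expansion, did not pass, at 2.84 and 2.66 CP10K in members and 2.20 and 2.09 CP10K in PP cells (log2 difference 0.02, SE 0.16, limma adjusted p = 0.961).

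Pyy, which encodes the gut and islet hormone peptide YY, had the lowest log2 difference of all genes named against PP cells. It was at 5.64 CP10K in members of library 1 and at 4.99, 3.44 and 3.98 CP10K in blocks 1 to 3, against 2295 and 2251 CP10K in PP cells of library 1 and the joint table (log2 difference -9.16, SE 0.11, limma adjusted p = 2.61e-11). Etv1, a transcription factor, was at 0.220 and 0.437 CP10K in members against 3.98 and 5.12 CP10K in PP cells. Gpx3, a secreted glutathione peroxidase, was at 0.379 and 0.284 CP10K in members against 5.62 and 9.47 CP10K. Tspan8, a tetraspanin of the cell surface, was at 0.321 and 0.264 CP10K in members against 12.3 and 9.88 CP10K. Beside these, 7 of 16 immediate early and heat shock genes were lower in members than in PP cells and 1 was higher.

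Delta cells were few: library 1 had 13 and the joint table had 11. Their summed columns held few UMIs. In members 974 genes were higher (9.79%) and 619 lower (6.22%) than in delta cells. On simulated data the fit falsely called 49 of 9292 unchanged genes in the comparison with delta cells. It recovered 23 of 50 rises and 10 of 50 falls of 1 on the log2 scale, and 49 and 42 of 50 at a change of 2. The counts against delta cells thus include some false calls, and the adjusted p-values there carry the same limit. Admitting delta cells from 5000 UMIs raised them to 18 and 99 cells and gave 1120 higher and 756 lower genes, of which 1294 were called in both fits. The excess of higher genes depended on the tool: edgeR's quasi-likelihood test gave 631 higher and 576 lower with TMM and 571 and 620 with DESeq2 size factors, DESeq2 gave 334 and 650, and limma without the filter on low values gave 545 and 756. The ER list was the same in direction, with 15 of 19 higher and none lower in either fit. Hyou1, an ER chaperone, was at 1.92 and 1.69 CP10K in members against 0.319 and 0.399 CP10K in delta cells.

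Some beta-cell genes were also present in delta cells. Pdx1, which delta cells also use, was at 2.19 and 2.00 CP10K in members and 1.40 and 1.40 CP10K in delta cells (log2 difference 0.62, SE 0.22, limma adjusted p = 0.0823). Iapp was at 944 and 892 CP10K in members against 298 and 325 CP10K in delta cells, a log2 difference of 1.62. The gate allowed delta cells some insulin, and the part of beta-cell transcripts in these levels was not tested. Isl1, a factor of all islet hormone cells, was lower in members at 2.78 and 2.39 CP10K against 6.75 and 8.28 CP10K. Rbp4, the plasma retinol carrier, was at 0.756 and 0.266 CP10K in members against 77.3 and 56.8 CP10K, and the delta factor Hhex at 0.0239 and 0.0155 CP10K against 3.19 and 4.69 CP10K. Whether these differences depart from those against alpha cells was not tested, and the comparisons share the members' columns.

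**Figure D2:**
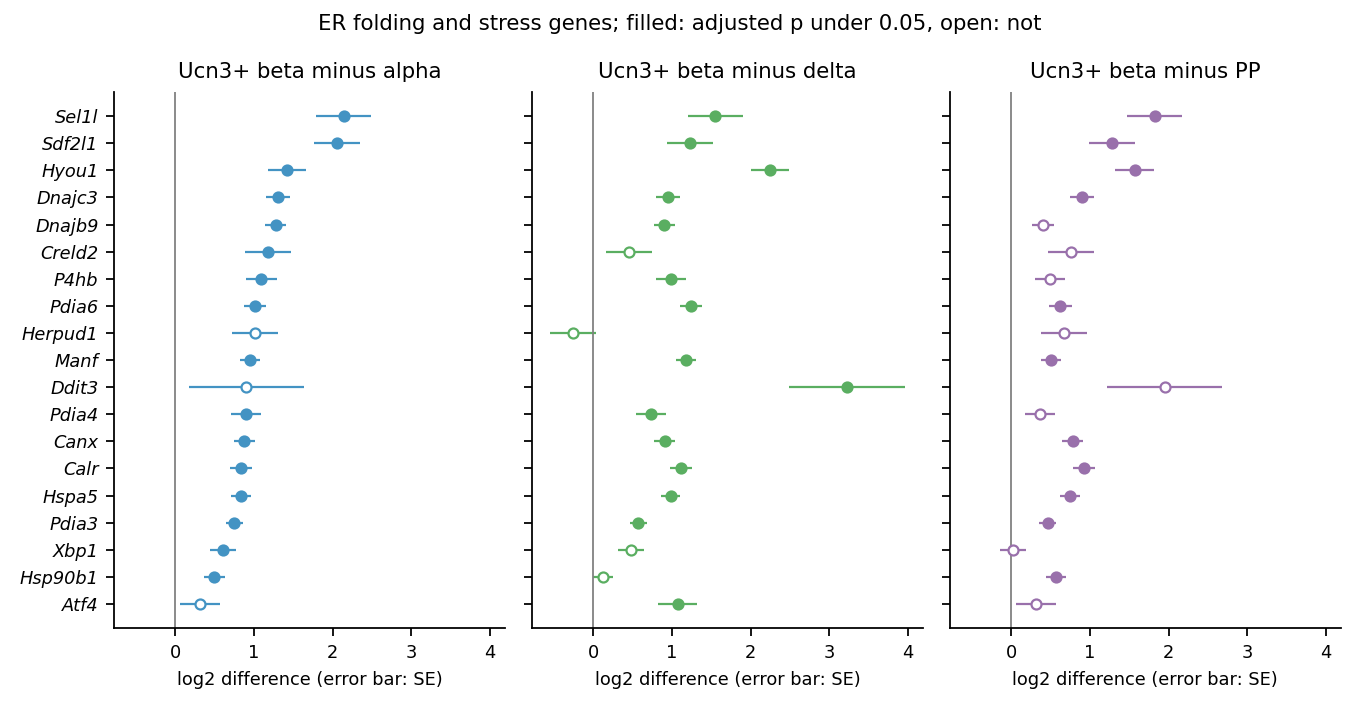
Log2 difference of Ucn3-positive beta cells minus alpha, delta or PP cells for the 19 tested ER folding and stress genes, with the SE of the limma fit as the bar and filled points for adjusted p under 0.05. The filled points number 16, 15 and 11, and all of them lie right of 0.

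The scaling decides part of these counts. With all UMIs in the total, insulin included, and no centring, the median gene shifted by -0.57 against alpha, -0.86 against delta and -0.28 against PP cells on the log2 scale. Calls then split into 203 higher and 2219 lower against alpha, 264 and 5032 against delta, and 226 and 873 against PP cells. The ER list had 3, 2 and 2 genes higher and 0, 6 and 0 lower under that scaling. Without centring alone, the split against PP cells was 1007 higher and 290 lower. All list directions above are relative to the median gene of the UMIs outside the 6 selecting genes.

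Genes that beta cells are known to keep silent, often called disallowed, were close to absent. All 26 listed were under 0.1 CP10K in members of both tables, with medians of 0.0105 and 0.00665 CP10K. In non-endocrine cells of the same libraries their medians were 1.02 and 0.625 CP10K. Ldha, lactate dehydrogenase A, was at 0.0105 and 0.0135 CP10K in members against 4.15 and 2.96 CP10K in non-endocrine cells. Slc16a1, the lactate and pyruvate carrier MCT1, was at 0.00149 and 0.000215 CP10K in members against 0.470 and 0.0573 CP10K. Only 7 of the 26 passed the filter on low values in the endocrine classes, so they carry no list count here. Most of the 26 were thus low in the other endocrine classes too, and low values were not particular to members. Of the CRH receptors, Crhr1 was at 0.0239 and 0.0285 CP10K in members and Crhr2 at 0 and 0.00107 CP10K.

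Few genes were called within beta cells, which does not show that few differ. On simulated data the fit recovered 11 of 50 rises and 2 of 50 falls of 1 on the log2 scale in this comparison. That rate describes the simulated counts and was not shown to hold for the measured genes. Against Ucn3-negative beta cells, 2 genes were called (0.0201% of 9948), both lower in members and none higher, and 72 had an unadjusted p under 0.05. edgeR's quasi-likelihood test with TMM called 37 genes, 7 higher and 30 lower, and DESeq2 called 13, 1 higher and 12 lower, with both limma calls among them. A fit of only the 2 classes, added after the data were seen, leaned the other way, with 102 genes called, 62 higher and 40 lower. The lean to lower genes thus depended on the fit. Of the lists of transcription factors, glucose sensing, receptors, granule, exocytosis and ER genes, none had a member called by limma in the fit of all classes.

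The 2 genes were Pyy and Tspan8. Pyy was at 5.64 CP10K in members against 18.8 CP10K in Ucn3-negative cells of library 1, 4.99 against 23.3 in block 1, 3.44 against 7.87 in block 2 and 3.98 against 3.57 in block 3. Block 3 thus ran the other way. The highest 1% of Ucn3-negative cells held 60.9% of their Pyy UMIs in library 1 and 42.3% in the joint table. In members it held 49.7% and 51.3%. The median was 1 UMI in members against 2 UMIs in Ucn3-negative cells of library 1, and 1 UMI in both joint-table classes. Among joint-table cells, 73.9% of members and 74.1% of Ucn3-negative cells had a Pyy UMI, so typical cells there differed little. The log2 difference was -1.67 (SE 0.11, limma adjusted p = 3.38e-04), and without block 1 it was -1.12 with an adjusted p of 0.9998. Tspan8 was at 0.321 CP10K in members against 1.26 CP10K in Ucn3-negative cells of library 1, and lower in members in each block, at 0.275, 0.239 and 0.267 CP10K against 0.909, 0.940 and 0.824 CP10K. Its log2 difference was -1.66 (SE 0.19, limma adjusted p = 0.0377), and the call was lost with either other pseudocount, with no filter on low values, with all UMIs in the total and with no library term. Neither gene was called once all cells were thinned to 10000 UMIs, with differences of -0.97 and -1.40, nor when the insulin gate was raised to 4000 CP10K, with -1.02 and -1.65.

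The limit on Ppy applies to both sides, and mean Ppy over cells was 1.88 and 2.15 CP10K of all UMIs in members against 11.7 and 4.41 CP10K in Ucn3-negative cells of library 1 and the joint table. The medians lay closer, at 0.591 and 1.51 CP10K in members against 0.689 and 1.69 CP10K. The 5 PP markers, which hold Pyy and Tspan8, summed to 7.59 CP10K in joint-table members against 18.0 CP10K in Ucn3-negative cells, with none at 0, and to 7.15 against 7.27 CP10K in block 3. Nearly all of the gap came from Pyy: Etv1 was at 0.437 CP10K in members against 0.455 CP10K in Ucn3-negative cells of the joint table, and Meis2, a homeobox gene, at 2.56 against 2.63 CP10K. The 8 delta markers were lower in members in every unit, at 0.925 against 1.74 CP10K in library 1 and 0.425 against 1.32, 0.362 against 1.001 and 0.297 against 0.982 CP10K in blocks 1 to 3. Most of that was Rbp4, at 0.266 CP10K in members against 0.965 CP10K in Ucn3-negative cells of the joint table (limma adjusted p = 0.9999). The part of PP and delta transcripts in the result was not tested. Mafa was at 10.3, 13.5, 13.2 and 13.5 CP10K in members of library 1 and blocks 1 to 3, against 4.70, 9.64, 9.95 and 10.6 CP10K in Ucn3-negative cells. Members had the higher value in each unit, but across units the values overlapped, with library 1 members under the Ucn3-negative cells of block 3. The log2 difference of 0.81 (SE 0.55) had a limma adjusted p of 0.9999, an edgeR adjusted p of 0.00912 and a DESeq2 adjusted p of 1. Atp2a2, the SERCA2 calcium pump, was at 13.1 and 13.4 CP10K in members against 7.70 and 10.1 CP10K, with a limma adjusted p of 0.9999, an edgeR adjusted p of 0.00355 and a DESeq2 adjusted p of 0.0245. Cd81, a surface marker of less mature beta cells in the mouse, was at 1.05 and 0.634 CP10K in members against 2.15 and 1.46 CP10K, with a limma adjusted p of 0.9999, an edgeR adjusted p of 4.59e-04 and a DESeq2 adjusted p of 0.0136.

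**Figure D3:**
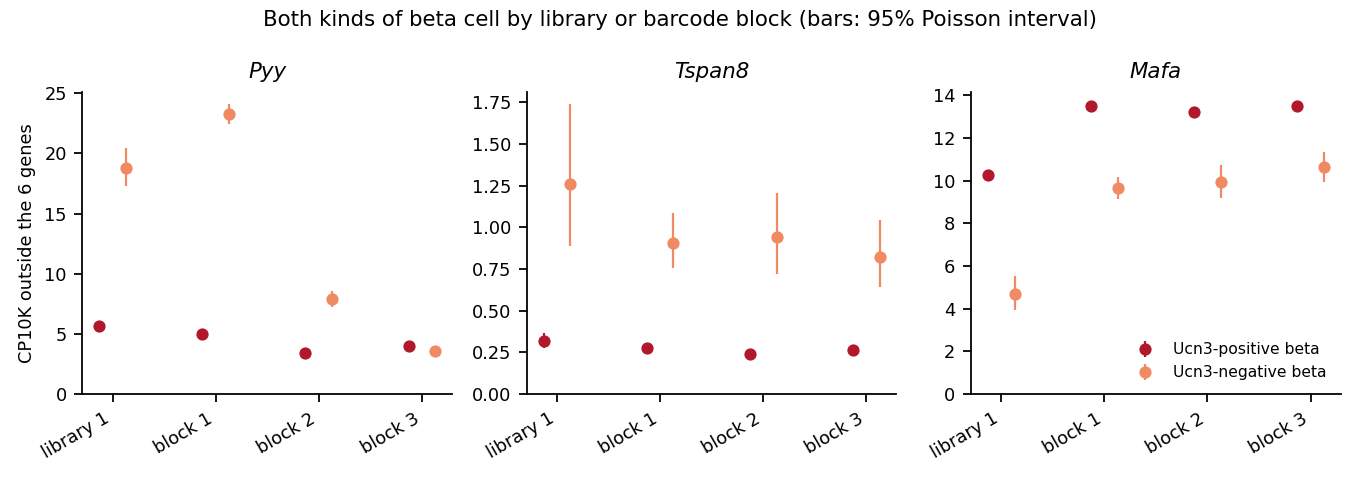
Levels of Pyy, Tspan8 and Mafa (CP10K outside the 6 selecting genes) in Ucn3-positive and Ucn3-negative beta cells of library 1 and each barcode block, with 95% Poisson intervals that cover counting error only. Tspan8 was lower and Mafa higher in Ucn3-positive cells of all 4 units, while Pyy was lower in 3 of them.

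To describe how members varied with their Ucn3 count, cells were thinned to 3000 UMIs of Ucn3 and the genes outside the 6, and binned at 0, 1, 2 to 3 and 4 or more Ucn3 UMIs. These bins were chosen after the data were seen and use a selecting gene, so they are a description. Of 1539 genes, 141 were higher (9.16%) and 142 lower (9.23%) in the highest bin than in the lowest in all 4 units. Mafa was at 11.2 against 9.46 CP10K in library 1 and at 15.6 against 12.1, 13.8 against 13.0 and 15.3 against 12.3 CP10K in blocks 1 to 3. Pyy was at 0.835 against 4.49 CP10K in library 1 and at 2.89 against 5.86, 2.41 against 3.45 and 2.54 against 5.93 CP10K in the blocks. It did not fall at each step in any unit, and the middle bins of library 1 were at 3.28 and 4.96 CP10K. The highest bin of library 1 had only 36 members. The 1% of members with the most Pyy held 49.7% of its UMIs in library 1, so a few cells can move a bin. Chgb, which encodes the granule protein chromogranin B, was at 11.8 against 22.0 CP10K in library 1, and the blocks differed little at 9.48 against 11.3, 11.0 against 11.7 and 8.97 against 10.1 CP10K. Median insulin was 6424 CP10K in the highest bin against 6542 CP10K in the lowest in library 1, and 6701 against 6648, 6835 against 6627 and 6507 against 6440 CP10K in the blocks. It was thus lower in the highest bin in library 1 and slightly higher in all 3 blocks.

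**Figure D4:**
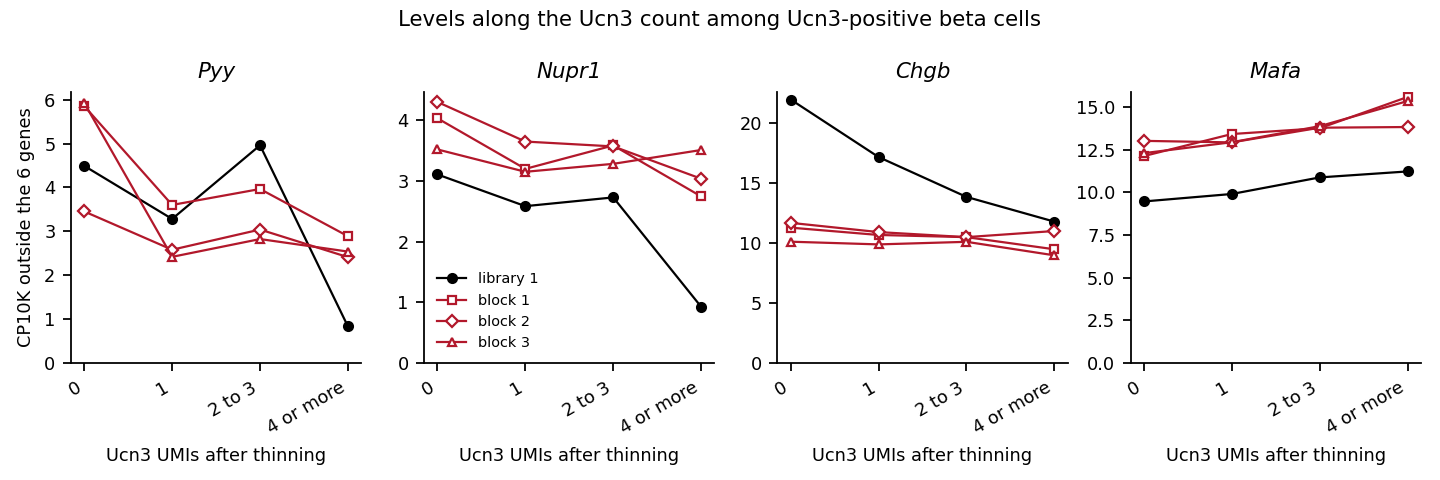
Level of 4 genes (CP10K outside the 6 selecting genes) in Ucn3-positive beta cells by Ucn3 UMIs after thinning, with 1 line for library 1 and 1 for each barcode block. Mafa ended higher in the top bin than in the lowest in every unit. Pyy ended lower, but did not fall at each step in any unit.

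Cell-to-cell variation among members was led by hormone, heat shock and stress genes. Excess variation is the squared coefficient of variation of a gene over cells thinned to 3000 UMIs outside the 6 genes, less the part that counting gives, and had a median of 0.0657 to 0.0785 over 1346 genes in the 4 units. Pyy ranked first at 20.8 in library 1 and 15.7, 30.7 and 30.6 in blocks 1 to 3. The 5 members of library 1 with the most Pyy, 1% of the cells, held 49.7% of its UMIs, and the highest 1% held 48.2%, 56.8% and 53.7% in the blocks. The rest was spread widely and thinly: 69.1% of members in library 1 and 84.9%, 61.5% and 67.6% in the blocks had a Pyy UMI, with medians of 1, 2, 1 and 1 UMI per cell. Pyy was at 0.554 and 2.22 CP10K in non-endocrine cells of library 1 and the joint table, against which the thin part of this signal was not tested.

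Nupr1, a stress-induced chromatin protein gene, followed at 2.28, 2.41, 2.47 and 1.92 in library 1 and blocks 1 to 3. The heat shock genes Hspa1b and Hspa1a had 2.11 and 2.79 in library 1. Dapl1, Rasd1, the immediate early gene Ier2, the metallothioneins Mt1 and Mt2, Lpl, the glucose-induced Txnip, Fkbp11, Gtf2b and Ppp1r15a were also among the first 15, and 13 of the first 15 were so without thinning. Mafa and Slc2a2 lay far below these but above the median gene. Mafa had 0.171 and 0.276 in library 1 and block 1, and Slc2a2 had 0.151 and 0.227. Not all identity genes did so in every unit. Mlxipl, the glucose-responsive factor ChREBP, had 0.606 in library 1, where it lay over Lpl at 0.588. It had 0.255, 0.121 and 0.223 in blocks 1 to 3. Pdx1 was above the median gene in library 1 and blocks 1 and 2, at 0.0994, 0.0987 and 0.153 against medians of 0.0657, 0.0785 and 0.0750. Only in block 3 was it under the median, at -0.033 against 0.0748.

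**Figure D5:**
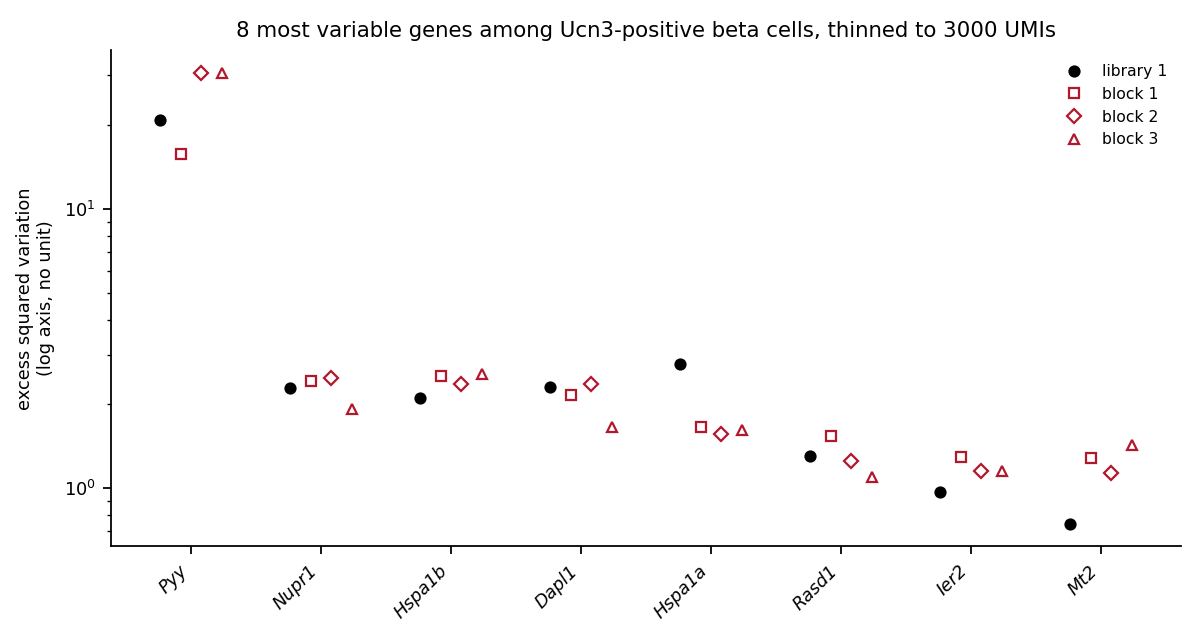
Excess squared variation (no unit, log axis) of the 8 highest-ranked genes over Ucn3-positive beta cells, with 1 point for library 1 and 1 for each barcode block. Pyy lies between 15.7 and 30.7, and all other points lie under 3.

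The 3 blocks of the joint table were close to one another. Over 1637 genes of at least 1 CP10K, the median log2 range between blocks was 0.0870 and 12 genes had a range over 0.5. Those 12 included the acinar transcripts Clps, Cela1, Prss2, Try4 and Ctrb1, highest in block 1. Pyy was also among them, with a range of 0.53.

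Neurog3 was rare in members. It had a UMI in 3 of 437 members in library 1 (0.687%, exact binomial 95% interval 0.142 to 1.99) and in 53 of 5814 in the joint table (0.912%, 0.684 to 1.19). It had one in 10 of 455 Ucn3-negative beta cells of the joint table (2.20%, 1.06 to 4.01) and in 0 of 23 of library 1, where 3 counts would make 13.0%. Non-endocrine cells, at a median of 2870 UMIs in the joint table, had it in 0 of 1513, where 3 counts would make 0.198%. Delta cells had it in 6 of 13 in library 1 and 5 of 11 in the joint table. As CPM over the UMIs outside the 6 genes, Neurog3 was at 1.22 (exact Poisson 95% interval 0.927 to 1.59) in joint-table members and 4.23 (2.19 to 7.39) in Ucn3-negative cells. TdTomato had a UMI in 7 of 437 members in library 1 (1.60%, 0.646 to 3.27), 3 of 23 Ucn3-negative beta cells (13.0%, 2.78 to 33.6), 2 of 69 alpha cells, 2 of 13 delta cells, 0 of 16 PP cells and 0 of 124 non-endocrine cells, where 3 counts would make 2.42%. These counts are too small to order the classes. In the joint table its row had a UMI in 40.4% of members and 17.9% of non-endocrine cells, whose depths differ. Its level outside the 6 genes was 70.7 CPM (68.3 to 73.2) in members, 72.2 CPM (62.7 to 82.8) in Ucn3-negative beta cells, 73.7 CPM (61.3 to 87.8) in alpha cells, 29.9 CPM (6.17 to 87.5) in delta cells, 52.6 CPM (41.6 to 65.5) in PP cells and 68.3 CPM (61.3 to 75.9) in non-endocrine cells. The members' interval overlapped all of these but that of PP cells. All these intervals cover counting error only.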

How the data were processed

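Islet cells of 3 samples were profiled with the 10x 3′ version 3 kit and aligned to mm10. Per the submitters' processing notes, tools included Cell Ranger 3.2.0 for library 1, Cell Ranger 5.0.0 and Seurat 4.0.0 for the joint table, cutadapt 2.5 and FastQC 0.11.8. Library 1 was deposited as raw UMI counts (16157 genes, 1146 columns). The joint table was deposited as natural log values, ln(1 + CP10K). All 35558086 nonzero values were whole UMIs within a relative tolerance of 0.001 once the exponent was taken, so UMIs were recovered from them. Of its 16050 columns, 3008 were identical copies and were dropped.

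Cells were gated as stated in the report, and non-endocrine cells needed 5 marker UMIs and 1000 UMIs in all. The members, gene lists and tests were chosen with earlier results of these data known. The 15741 genes in both tables were summed per class and library. Genes with at least 0.1 CP10K in 2 columns were tested with limma 3.58.1, because the joint table holds log values, and edgeR 4.0.16 and DESeq2 1.42.0 ran on recovered UMIs as alternatives. All classes shared 1 estimate of the spread. The fit was tested on simulated data. There it falsely called 49 of 9292 unchanged genes in the comparison with delta cells and made no false call in any other. It missed most changes of 1 on the log2 scale in all 4 comparisons. Delta calls therefore include some false ones, and few calls do not show few differences. Named genes were the 10 largest called changes per direction with a mean of at least 0.5 CP10K and the same sign in all units, up to 4 per list, and the 15 most variable genes. Some genes that the rule names are not reported here. Genes outside that rule, chosen after their values were seen, were Prox1, Hspa5, Gpr119, Resp18, Pcsk2, Egr1, Atf4 and Ldha against alpha or non-endocrine cells, then Iapp and Pdx1 against delta cells, and Neurod1, Hspa5 and Xbp1 against PP cells. Scrublet's automatic threshold marked 6, 5, 28 and 1 cells in library 1 and blocks 1 to 3, so doublets were kept and the highest scores were left out as an alternative. Library 1 held 27474046 UMIs and 196833349 UMIs were in the joint table after the copies were dropped.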

Additional observations from a re-analysis of the deposited data

How the results depend on the processing

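Over 78 gene differences, 1519 of 1575 values under an alternative were counted as keeping their direction and side of the threshold. Of the rest, 29 lost the call, 20 gained it and 7 changed sign. The 1519 include the values of library 1 alone and of the joint table alone, 78 each, all counted as kept. A single library allows no test against the threshold, so these values do not show that a call holds. With all UMIs in the total, Pdx1 was at -0.62, Hspa5 at -0.30 and Neurod1 at -0.23 against delta cells, Atf4 at -0.48 against alpha cells and Xbp1 at -0.39 against PP cells. Xbp1 was also at -0.021 with a pseudocount of 0.01 and at -0.25 after thinning. The counts of called genes moved more. Against Ucn3-negative cells, 2 genes became 37 with edgeR and TMM, 35 with edgeR and DESeq2 size factors and 13 with DESeq2. They became 1 with a pseudocount of 0.01 or 0.5, with no filter, with all UMIs in the total, with no library term and without barcode block 1, 0 after thinning to 10000 UMIs or with insulin at 4000 CP10K, and 102 with only the 2 classes compared in the fit, an alternative added after the data were seen. Against alpha cells, 1021 became 3544, 3559 and 2273 with the same 3 count tools, 2422 with all UMIs in the total, 1598 with a floor of 5000 UMIs, 1691, 1641 and 1604 without block 1, 2 or 3, and 3453 with only the 2 classes. Against PP cells, 941 became 2951, 2958 and 1830 with the count tools, 1655 with the lower floor, 1683, 1768 and 1814 without block 1, 2 or 3, and 2244 with the 2 classes. Against delta cells, 1593 became 984 with DESeq2, 5296 with all UMIs in the total and 1007 with the 2 classes. Leaving out a block left too few delta cells, so the other columns shared the spread without them in the alpha and PP fits. For other changes the cause was not tested. Other gates gave 4529 to 6665 members. The library term already blocks each comparison by library, and without it the counts were 783 against alpha, 1260 against delta and 668 against PP cells. No paired analysis was possible because all samples form 1 group, so replicate numbers pair no samples across groups. Depth limits the Ucn3 call and every gene of few UMIs.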

Other observations

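The 2 tables gave members similar levels for most genes, with a median log2 difference of 0.02 (joint table minus library 1) over 1658 genes of at least 1 CP10K in either. In 13 genes the difference was over 3 on the log2 scale. Glp1r, the GLP-1 receptor, was at 9.16 CP10K in members of the joint table and 0.10 CP10K in those of library 1. The vacuolar ATPase subunit gene Atp6v0c was at 5.89 and 0.0164 CP10K, Rnasek at 5.30 and 0.0105 CP10K, and Nme2 at 9.65 and 0.0598 CP10K. The acinar transcripts Prss2 and Ctrb1 were at 1.89 and 2.35 CP10K in the joint table and 0.0852 and 0.118 CP10K in library 1. Ptp4a1 ran the other way, at 0.0335 CP10K in the joint table and 1.36 CP10K in library 1. The tables were made with different versions of Cell Ranger and list different genes, and the part of that in these gaps was not tested. Within the joint table, Glp1r was at 9.16 CP10K in members against 0.242 CP10K in alpha cells.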
